A study of Mus musculus with 2 samples.

Results

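The receptors described here are 8 G protein-coupled receptor genes of the oligodendrocyte (OL) lineage, *Gpr17*, *Gpr37*, *Gpr37l1*, *Gpr62*, *Lpar1*, *S1pr1*, *S1pr5* and *Ednrb*. They were chosen by name, and all 8 were found among the 23951 gene symbols that both libraries share. RNA-seq had been carried out on optic nerve at postnatal day 12 (P12), a white matter tract that is being myelinated at that age. The control library came from mice labelled Tcf7l2 c/+; OLig1-cre, and the mutant library (*Tcf7l2*ΔHMG) from mice labelled Tcf7l2 c/c; OLig1-cre, where c is the floxed allele. In both, *Olig1*-Cre excised the exon for the DNA-binding HMG box of *Tcf7l2* in the OL lineage, from 1 allele in the control mice, from both in the mutant mice, so the control is heterozygous in those cells and not wild type. Recombination leaves a transcript in frame, so the FPKM of the whole *Tcf7l2* gene, 17.8 in control nerve and 14.6 in the mutant, does not check the deletion. The mice were of mixed genetic background, and the study used both sexes. There was 1 library per genotype, the number of mice behind each is not given in the sources used here, and no difference below has a replicate check or a p-value.

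G protein-coupled receptors cross the membrane repeatedly and pass the binding of a ligand to heterotrimeric G proteins, which in turn adjust cyclic AMP, calcium and the cytoskeleton. As an OL precursor cell (OPC) commits, stops dividing and myelinates, it switches such receptors on and off. *Gpr17* peaks in committed, premyelinating cells, *Gpr37*, *Gpr62*, *Lpar1* and *S1pr5* are known from maturing OLs, and *S1pr1*, *Gpr37l1* and *Ednrb* are shared with precursors, astrocytes or vessels. *Gpr17* and *Gpr37* act as brakes on differentiation.

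The values are FPKM, counts of fragments scaled to transcript length and to the mapped fragments of the library, so that levels of different genes can be compared per length. The depth read from the interval bounds of short unnamed rows came to 27624000 fragments for the control library and 39938000 for the mutant one. Each value comes with a Cufflinks confidence interval, whose half-width was between 1.51% and 7.84% of its midpoint for the 8 genes. The interval covers sampling within a library and not differences between animals. Of the 16 values (8 genes in 2 libraries), 6 lay above their own interval, all of them among the 7 rows that carry a gene symbol as their identifier rather than that of a transcript assembled in the library. Over all named rows of at least 1 FPKM, the value lay outside its interval in 21.0% of such rows in control nerve and 24.2% in the mutant, and in 2.90% and 4.59% of the assembled rows. For the 8 receptors, values outside their interval are named below.

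In the control optic nerve the receptors spanned a wide range of levels. *Gpr17* was the highest at 234.98 FPKM, followed by *Ednrb* at 205.66, *Gpr37l1* at 184.93, *Gpr37* at 74.2, *Lpar1* at 69.5, *S1pr5* at 38.8, *S1pr1* at 24.2 and *Gpr62* at 17.1 FPKM. Each neighbouring pair in this order had separate intervals except *Gpr37* and *Lpar1*. In the mutant the order was *Ednrb* at 202.54 FPKM, *Gpr37l1* at 175.71, *Gpr17* at 155.76, *Lpar1* at 49.5, *Gpr37* at 48.0, *S1pr1* at 36.2, *Gpr62* at 20.6 and *S1pr5* at 20.4 FPKM. The pairs *Lpar1* with *Gpr37* and *Gpr62* with *S1pr5* had overlapping intervals there. *Gpr17* thus held rank 1 in the control library and rank 3 in the mutant (rank 1 or 2 there when the overlapping gene *Lims2*, described below, is added to it), and *S1pr5* passed from the 6th to the 8th place. Even the lowest receptor was well expressed, since 67.5% of the 14199 genes compared had a lower control FPKM than *Gpr62*.

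**Figure D1:**
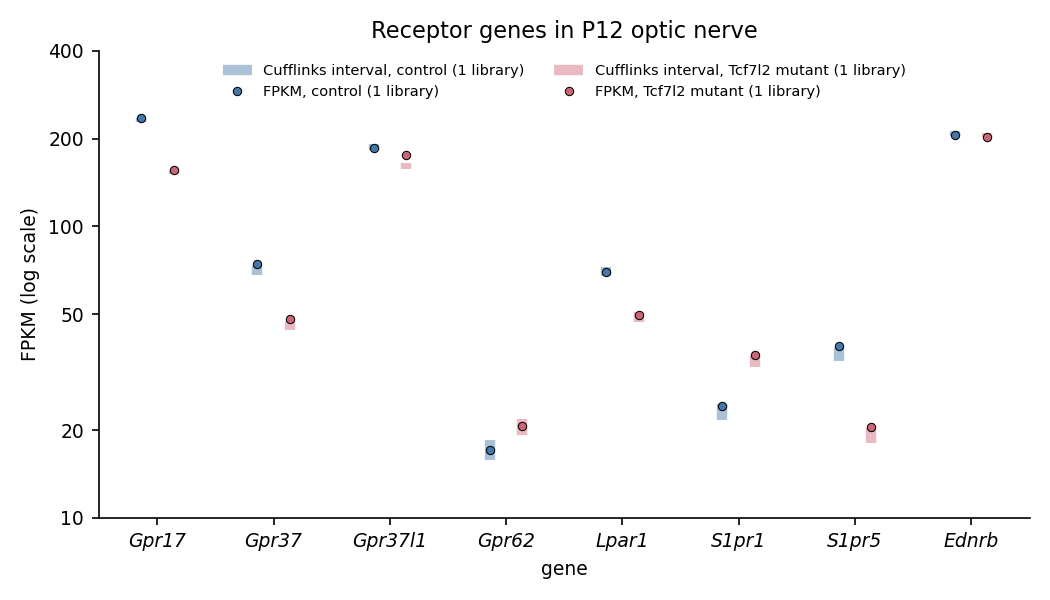
FPKM of the 8 receptor genes (log scale) in the control library (blue) and the *Tcf7l2* mutant library (red), with points for the FPKM and bars for its Cufflinks interval. *Gpr17*, *Gpr37*, *Lpar1* and *S1pr5* lie lower in the mutant, *S1pr1* and *Gpr62* higher (lower once all rows are rescaled to a common sum), and the 2 values of *Ednrb* are 205.66 and 202.54 FPKM; points above their bar are values outside their own interval.

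Between the genotypes, most receptors of committed and maturing OLs were lower in the mutant, and *Gpr62* was not. *S1pr5*, *Gpr37*, *Gpr17* and *Lpar1* had log2 ratios of mutant to control between −0.92 and −0.49. *Ednrb* and *Gpr37l1*, which astrocytes share, lay close to 0 at −0.02 and −0.07, and *S1pr1* and *Gpr62* were higher at 0.58 and 0.27. When all rows, unnamed ones included, were rescaled to a common sum, which moved the median of all genes from 0.05 to −0.61, *S1pr1* and *Gpr62* turned to −0.09 and −0.40 but still lay 0.52 and 0.21 above that median, and *Ednrb* and *Gpr37l1* went to −0.69 and −0.74. In bulk tissue, fewer cells of a type and less RNA per cell cannot be told apart.

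By the study's cutoff, a fold change above 1.5, 3 of the 8 receptors were lower in the mutant (*S1pr5*, *Gpr37* and *Gpr17*), beside 8.52% of the 14199 genes compared, and none was higher, beside 15.4%. With all of the *Lims2* value counted towards *Gpr17*, as described below, 2 of the 8 were lower. Genes were compared if either library, or both, reached 1 FPKM. The median log2 ratio of the 8 was −0.28, against 0.05 over all genes compared, whose 5th and 95th percentiles were −0.83 and 1.18. On either side of the cutoff, at 0.585 on the log2 scale, *Gpr17* lay just outside at −0.593 and *S1pr1* just inside at 0.582. Control and mutant intervals were apart for 7 of the 8 receptors, beside 52.4% of all genes compared, and *Ednrb* was the exception. The 7 include *Gpr37l1*, whose mutant FPKM of 175.71 lay above its interval of 157.59 to 164.98. Even the lowest receptor exceeded 67.5% of the genes compared in control FPKM, and the share over all genes was not matched for level. With 1 library per genotype these shares describe the libraries and are not tests.

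**Figure D2:**
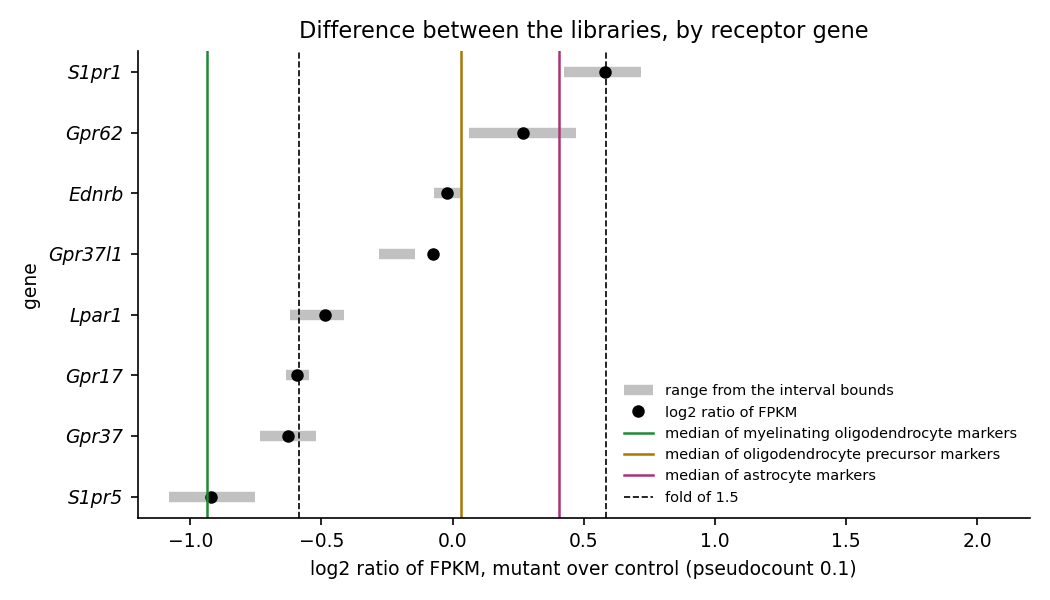
Log2 ratio of mutant to control FPKM for each receptor gene (points), with the range that the Cufflinks interval bounds of both libraries allow (grey bars), the medians of 3 marker lists (coloured lines) and the fold of 1.5 (dashed lines). *S1pr5* lies at −0.92 by the myelinating OL median of −0.94, *Ednrb* at −0.02 by the OPC median of 0.03, and *S1pr1* at 0.58 above the astrocyte median of 0.40; *Gpr37l1* lies outside its own bar because its mutant FPKM was above its interval. With all rows rescaled to a common sum, *S1pr1* and *Gpr62* lie below 0.

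The receptors for sphingosine 1-phosphate (S1P), a lipid made inside cells and exported to act on neighbours, differed in opposite directions, *S1pr5* lower and *S1pr1* higher (or slightly lower, at −0.09, after all rows were rescaled). *S1pr5* is the S1P receptor of mature OLs, and the files place it on chromosome 9 from 21047361 to 21052887 (positions are in mm9, the build named in the submitters' processing notes, with starts counted from 1). It reached 38.8 FPKM in the control (interval 34.4 to 38.3) and 20.4 in the mutant (18.0 to 20.4), both just above their intervals. The control value was 1.90 times the mutant value, a log2 ratio of −0.92, and the interval bounds allow −1.08 to −0.75. This was the largest difference among the 8 receptors, and 4.23% of all genes compared had a lower log2 ratio. *S1pr1*, a Gi-coupled receptor of vessels, astrocytes and OPCs mapped to chromosome 3, positions 115413351 to 115417973, had 24.2 FPKM in the control (21.7 to 24.5) and 36.2 in the mutant (32.9 to 35.8), where the value lay above its interval. Its log2 ratio was 0.58, with bounds of 0.42 to 0.72, and it was −0.09 after all rows were rescaled.

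The ratio of *S1pr5* to *S1pr1* within a library does not depend on any scaling of the libraries. It was 1.60 in the control (1.40 to 1.76 from the interval bounds) and 0.56 in the mutant (0.50 to 0.62), a 2.84-fold difference that turned *S1pr5* from the higher of the pair into the lower. *S1pr3*, the S1P receptor gene with the highest FPKM in the tissue, was level at 68.3 and 66.1 FPKM. Among the genes that make and clear the ligand, *Sphk1*, a sphingosine kinase, was at 10.8 FPKM in control nerve and 24.7 in the mutant (log2 ratio 1.18), and its relative *Sphk2* at 12.7 and 13.2. *Spns2*, which exports S1P, was at 15.2 and 9.72 FPKM (log2 ratio −0.64), and its intervals did not overlap. Of the 7 genes of S1P synthesis, export and breakdown compared, *Sphk1* and *Spns2* were the only members past the cutoff, in opposite directions.

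*Gpr37* and *Gpr37l1* encode related receptors, for which prosaposin has been proposed as a ligand, and their log2 ratios were of unlike size. *Gpr37*, which restrains OL maturation, lies on chromosome 6 from 25618523 to 25639980. It reached 74.2 FPKM in the control (68.0 to 73.2) and 48.0 in the mutant (44.0 to 47.3), both above their intervals. The log2 ratio was −0.63, with bounds of −0.73 to −0.52, so that the lesser bound lies inside the cutoff. *Gpr37l1*, known mainly from astrocytes and OPCs and mapped to chromosome 1, positions 137056827 to 137064258, had 184.93 FPKM in the control (182.44 to 191.70) and 175.71 in the mutant. The mutant value lay above its interval of 157.59 to 164.98, and its row was identified by symbol in the mutant but by an assembled transcript in the control. The log2 ratio was −0.07 by FPKM and −0.21 by the midpoints of the intervals, so the size of this small difference rests on which of these is used. The *Gpr37* to *Gpr37l1* ratio was 0.40 in control nerve and 0.27 in the mutant, and the bounds of the ratio, 0.35 to 0.40 and 0.27 to 0.30, did not overlap. *Psap*, which encodes prosaposin, was at 385.84 and 481.23 FPKM (log2 ratio 0.32).

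*Gpr62*, an orphan receptor gene expressed in mature OLs, was not lower in the mutant as deposited. It lies on chromosome 9 from 106366291 to 106368271 and reached 17.1 FPKM in the control (15.8 to 18.5) and 20.6 in the mutant (19.3 to 21.9). Both values lay inside their intervals, which did not overlap, and the log2 ratio was 0.27, with bounds of 0.06 to 0.47, or −0.40 after all rows were rescaled. *Mag*, a myelin adhesion protein gene, was at 1369.1 and 627.4 FPKM, both below their intervals. Its log2 ratio was −1.13, and the myelinating OL markers ran from −2.04 to −0.36. Relative to *Mag*, *Gpr62* went from 0.0125 in the control (0.0112 to 0.0134) to 0.0328 in the mutant (0.0299 to 0.0347). *S1pr5* was at 0.0283 (0.0245 to 0.0278) and 0.0326 (0.0280 to 0.0323) of *Mag*, both above their bounds. *Gpr62* was also higher relative to *Gpr37*, going from 0.230 (0.215 to 0.271) to 0.429 (0.407 to 0.498). The first 52 bases of the *Gpr62* row overlap the end of the *Pcbp4* row, which was at 125.47 and 110.25 FPKM, both above their intervals, and the part of this overlap in the value of *Gpr62* was not tested.

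*Gpr17* encodes the receptor that marks committed, premyelinating OLs, and the files place it on chromosome 18 from 32102653 to 32109290. It reached 234.98 FPKM in the control (228.27 to 235.28) and 155.76 in the mutant (151.30 to 156.11), inside both intervals. The log2 ratio was −0.59, with bounds of −0.64 to −0.55. All of the *Gpr17* row lies within the row of *Lims2*, the gene of an adaptor protein of cell adhesions, which was named here after its values were seen. *Lims2* was listed at 0 FPKM in the control (interval 0 to 0.32) and at 63.3 in the mutant (60.7 to 66.4). In the GENCODE M21 annotation of GRCm38 the genes lie on opposite strands and share 188 exonic bases, in 2 exons of *Lims2*. Whether the libraries keep the strand is not given in the sources used here, and without strand, fragments of these bases cannot be told apart.

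The size of the difference in *Gpr17* therefore depends on the fragments given to *Lims2*. With both rows summed, the locus had 234.98 FPKM in control nerve and 219.05 in the mutant, a log2 ratio of −0.10. That sum counts *Lims2* too heavily, since its longest transcript in the annotation has 1870 bases and that of *Gpr17* 5195. With *Lims2* weighted by these lengths, the mutant value became 178.54 FPKM and the log2 ratio −0.40. Both ways give all of the *Lims2* value to *Gpr17*, although the annotated exons share only 188 bases. A value that moves only the fragments of the shared bases was not computed. *Gpr17* stayed lower in the mutant in both cases, and in both it was inside the cutoff. The ratio of *Gpr17*, without *Lims2*, to other genes of the lineage went either way. It was 1.49 times *Enpp6*, a gene of newly formed OLs, in control nerve and 1.84 times in the mutant. Relative to *Sox10*, the transcription factor gene of the whole lineage, whose mutant FPKM lay above its interval, it was at 1.63 and 2.03, and relative to *Cspg4*, an OPC gene, at 23.7 and 19.3. *Bcas1*, another gene of newly formed OLs, had a log2 ratio of −0.59, like *Gpr17* by itself. It is among 8 committed and premyelinating OL markers that ran from −1.91 to 0.85.

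*Lpar1* encodes a receptor for lysophosphatidic acid (LPA), which OLs both make and respond to. The gene lies on chromosome 4 from 58448124 to 58566363 in the control, with 3 transcription start identifiers summed in its row, so a change of start site would not be seen. It reached 69.5 FPKM in the control (67.6 to 72.4) and 49.5 in the mutant (47.1 to 50.6), inside both intervals. The log2 ratio was −0.49, with bounds of −0.62 to −0.41, and 11.5% of all genes compared had a lower ratio. *Enpp2*, which encodes autotaxin, the secreted enzyme that produces LPA, was at 316.77 FPKM and, above its interval, 212.38 FPKM (log2 ratio −0.58). Receptor and enzyme were lower to a like extent, and the ratio of *Lpar1* to *Enpp2* was 0.219 in the control (0.207 to 0.229) and 0.233 in the mutant (0.226 to 0.251), with overlapping bounds. *Plpp3* (listed as *Ppap2b*), a lipid phosphatase gene that degrades LPA and S1P, was higher, at 56.3 and 87.0 FPKM (log2 ratio 0.63). *Lpar5*, another LPA receptor gene, was at 0.23 FPKM in control nerve and 1.03 in the mutant, and *Lpar6* at 5.79 and 4.42 FPKM with a status of low data in the mutant, so it was not compared.

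*Ednrb* encodes the endothelin receptor of astrocytes and OPCs, and by FPKM as deposited it was the receptor with the smallest difference, whereas after all rows were rescaled it was at −0.69, past the cutoff, and *S1pr1* at −0.09 had the smallest. It lies on chromosome 14 from 104213832 to 104243693 and reached 205.66 FPKM in the control (204.23 to 212.18) and 202.54 in the mutant (201.90 to 208.55). In the control its row sums 2 transcription start identifiers, so a change of start site would not be seen here either. The intervals overlapped, and the log2 ratio of −0.02 had bounds of −0.07 to 0.03. *Ednra*, the other endothelin receptor gene, was at 5.67 and 5.99 FPKM, so *Ednrb* stood 36.2 times as high in control nerve and 33.8 times in the mutant. A ligand gene, *Edn1*, was low, at 1.23 FPKM in the control (0.91 to 1.54) and 0.64 in the mutant (0.46 to 0.82), a log2 ratio of −0.84. *Edn3*, another endothelin gene, was at 6.97 FPKM in the control (6.31 to 7.65) and 8.76 in the mutant (8.12 to 9.41), a log2 ratio of 0.33. *Ece2*, which encodes a converting enzyme, was at 13.6 and 14.9 FPKM.

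Markers of the cell types in the nerve gave the setting for these values. All 12 myelinating OL markers were lower in the mutant, 8 of them past the cutoff, with a median log2 ratio of −0.94 and a sum of 32568 FPKM in control nerve and 18685 in the mutant. All 4 markers of the whole lineage were lower, with a median of −0.73, and 7 of 8 committed and premyelinating OL markers were, with a median of −0.61. The 8 OPC markers divided evenly, 4 lower and 4 higher, with a median of 0.03, and *Pdgfra* was at 35.9 and 33.6 FPKM in a row merged with a microRNA gene. *Bmp4*, in the committed list, went against its list at 38.0 and 68.6 FPKM. No marker of these 4 lists was at 0.

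Against these medians the receptors could be placed in order. *S1pr5* differed from the myelinating OL median by 0.02, whereas *Gpr37* lay 0.31, *Gpr17* 0.34 and *Lpar1* 0.45 above it. *Gpr17* and *Gpr37* lay within 0.02 of the committed OL median, at differences of 0.02 and −0.02. With all of the *Lims2* value added, *Gpr17* was at −0.40 or −0.10, above both the committed and the myelinating OL median. *Gpr62* and *S1pr1* lay 1.21 and 1.52 above the myelinating OL median. Over the 8 receptors the median stood 0.66 above the myelinating OL median, so as a list they were lower by less than the myelin genes. These are differences of log2 ratios between the same libraries and do not depend on how the libraries are scaled.

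By FPKM as deposited, astrocyte, microglial, meningeal and neuronal markers were mostly higher in the mutant, but rescaling all rows, which moved the median of all genes from 0.05 to −0.61, puts the astrocyte, meningeal and microglial medians below 0 too. Of 10 astrocyte markers, 9 were higher in the mutant, with a median of 0.40, a sum of 5201.7 and 6189.7 FPKM, and *Gja1*, an astrocyte connexin gene, at 237.16 and 381.12 FPKM. *Aqp4*, the astrocyte water channel gene, was the exception at 181.70 and 148.46. All 8 meningeal fibroblast markers were higher, with a median of 0.58, and *Dcn*, a matrix proteoglycan gene, was at 137.42 and 235.35 FPKM. Endothelial markers were mixed, 5 lower and 3 higher with a median of −0.15, and *Cldn5*, a tight junction gene, was at 64.1 and 43.7 FPKM. Microglial markers had a median of 0.15, with *Cx3cr1* at 16.2 and 17.7 FPKM, and pericyte markers, 4 lower and 3 higher, one of −0.28. *Pdgfrb*, which defines pericytes, was at 18.6 and 22.5 FPKM, and *Higd1b*, the only pericyte marker past the cutoff, at 8.51 and 3.83. Neuronal markers were low, with a sum of 39.9 and 54.7 FPKM, but all 5 compared were higher as deposited, 3 of them past the cutoff, with a median of 0.79. Below 1 FPKM and so not compared, *Pou4f1* was lower, at 0.78 and 0.15 FPKM, and *Slc17a6* higher, at 0.22 and 0.50. *Snap25*, a synaptic gene, was at 5.92 and 10.3 FPKM, and *Syt1*, another, at 1.07 and 3.64. The part of neuronal RNA in the values of the receptors was not tested. None of these markers was at 0 in either library.

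*S1pr1*, *Ednrb* and *Gpr37l1* could come from several of these cells. The ratio of *S1pr1* to *Gja1* was 0.102 in the control (0.089 to 0.104) and 0.095 in the mutant (0.091 to 0.101), with overlapping bounds. Its ratio to *Cldn5* went from 0.377 to 0.828. However, *Cldn5* had the lowest log2 ratio of the 8 endothelial markers, −0.55, and both its values lay above their intervals. *Cdh5*, another of these markers, had the highest, 0.59, so the ratio to an endothelial gene depends on the gene chosen. *Ednrb* stood at 0.867 of *Gja1* in control nerve (0.834 to 0.901) and 0.531 in the mutant (0.558 to 0.590), where the ratio lies outside its bounds because the mutant FPKM of *Gja1* was above its own interval. *Gpr37l1* stood at 0.780 (0.745 to 0.814) and 0.461 (0.436 to 0.467) of *Gja1*. The log2 ratio of *Gja1* was 0.68, above the astrocyte marker median of 0.40, and the astrocyte markers ran from −0.29 to 0.86. The size of these ratios to *Gja1* therefore depends on the marker chosen. The part of unequal astrocyte, meningeal or vessel RNA in the values of these 3 receptors was not tested.

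Genes of the same pathways were counted around the receptors. Of 133 listed genes of ligands, related receptors, G proteins and their regulators, 112 were compared, and by FPKM as deposited 9 were lower and 12 higher past the cutoff (8.52% and 15.4% of all genes compared), with a median log2 ratio of 0.08 (0.05 over all genes). Among 8 compared receptors of the same families, none was lower past the cutoff and 2 were higher, *Lpar5* and *P2ry1*, a purinergic receptor gene at 3.22 and 5.88 FPKM. Of 16 compared genes of other receptors described in OLs, *Gpr155* was lower, at 14.2 and 7.72 FPKM, and *Chrm1*, a muscarinic receptor gene at 0.93 and 1.80, and *Gabbr2*, a GABA-B subunit gene at 2.56 and 4.39, were higher. *Gprc5b* was the highest receptor gene of this list, at 59.8 and 73.2 FPKM.

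The G protein subunits themselves had a median log2 ratio of 0.01 over 25 genes. *Gnas*, which encodes the stimulatory alpha subunit, was the most abundant at 695.56 and 893.57 FPKM (log2 ratio 0.36). *Gnb4* (40.2 and 25.5 FPKM) and *Gng4* (12.5 and 7.18 FPKM), a beta and a gamma subunit gene, were lower past the cutoff. *Gnaz* (2.13 and 3.36 FPKM), *Gng8* (7.55 and 11.4 FPKM) and *Gng13*, listed at 0 in control nerve and at 3.20 FPKM in the mutant, were higher. However, the intervals of *Gng8* overlapped (6.31 to 8.78 in the control, 8.70 to 14.1 in the mutant). The mutant FPKM of *Gng13* lay above its interval of 1.15 to 2.78. Among kinases, arrestins and regulators of G protein signalling, *Grk4* (8.80 and 5.48 FPKM) and *Rgs5* (63.0 and 40.5 FPKM), which is also a pericyte gene, were lower, and *Rgs9* (1.75 and 2.87) and *Rgs11* (2.97 and 4.50) higher. In the cyclic AMP list, the phosphodiesterase gene *Pde7a* (7.96 and 3.61 FPKM) and the cyclase gene *Adcy4* (6.0 and 3.14) were lower, and *Adcy9* (4.30 and 6.99) was higher. Its 26 compared genes had a median of 0.00.

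**Figure D3:**
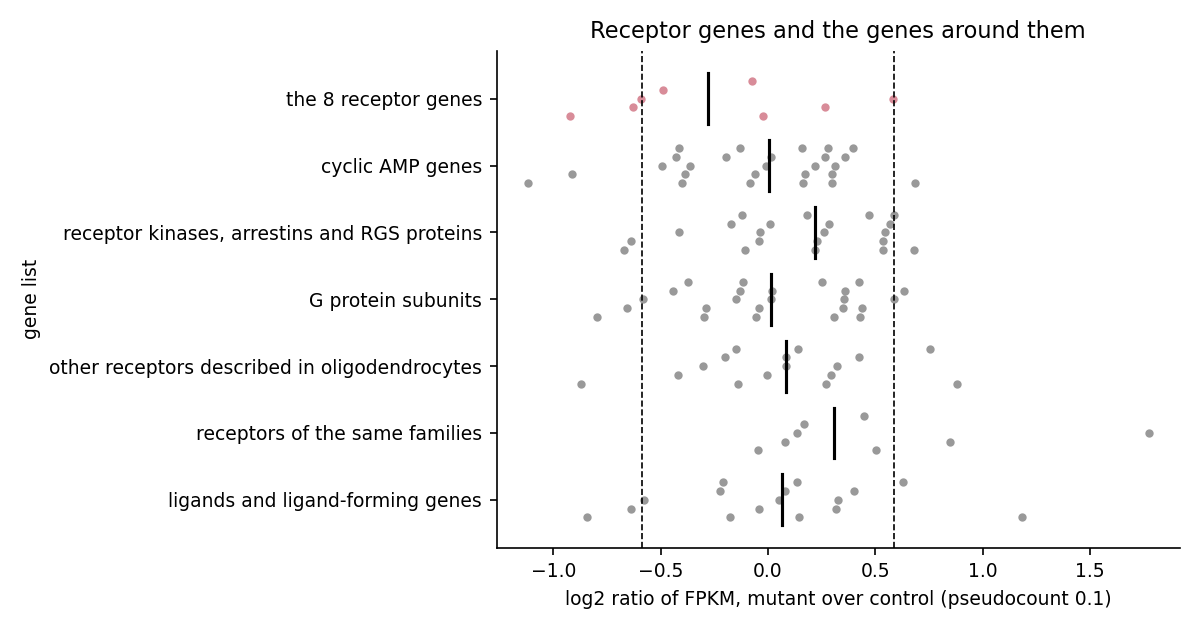
Log2 ratio of mutant to control FPKM for the 8 receptor genes (red) and for the compared genes of 6 lists around them (grey), 1 point a gene, with the median of each list as a black bar and the fold of 1.5 as dashed lines. *Gng13*, listed at 0 in the control, is not drawn but counts in its median. The receptors have a median of −0.28, and the medians of the other lists lie between 0.00 and 0.31.

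Sequences before the start sites are shown for receptors that differed in opposite directions by FPKM as deposited, since *Tcf7l2* encodes a DNA-binding factor. After all rows were rescaled, *Gpr62* was lower too, at −0.40. No promoter window was read for *Gpr17* or *S1pr1*. RefSeq promoter windows of GRCm38.p6, from 250 bases before to 50 bases after a start, were read for 6 of the 8 receptors (8 windows, 3 of them of *Lpar1*, a pair of which overlap). They were searched on both strands for TCAAAG, the core of TCF/LEF sites, and for ACAAAG and ACAATG, letters of SOX sites. The first pair share CAAAG but differ in the base before it. The windows of *S1pr5*, *Gpr37* and *Gpr62* follow 5′ to 3′ on the minus strand, with matches in capitals.
S1pr5, chr9:21248394-21248693: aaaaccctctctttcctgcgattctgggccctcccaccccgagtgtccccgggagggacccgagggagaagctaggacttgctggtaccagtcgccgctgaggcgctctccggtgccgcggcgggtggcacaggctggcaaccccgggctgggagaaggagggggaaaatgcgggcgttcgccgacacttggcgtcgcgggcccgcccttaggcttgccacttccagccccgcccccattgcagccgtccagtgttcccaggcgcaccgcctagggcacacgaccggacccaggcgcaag
Gpr37, chr6:25689931-25690230: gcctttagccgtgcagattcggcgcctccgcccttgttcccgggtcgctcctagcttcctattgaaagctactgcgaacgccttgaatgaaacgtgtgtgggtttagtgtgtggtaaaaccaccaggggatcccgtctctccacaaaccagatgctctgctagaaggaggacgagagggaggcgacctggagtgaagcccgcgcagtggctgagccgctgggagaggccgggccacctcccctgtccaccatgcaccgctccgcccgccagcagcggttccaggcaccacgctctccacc
Gpr62, chr9:106465936-106466235: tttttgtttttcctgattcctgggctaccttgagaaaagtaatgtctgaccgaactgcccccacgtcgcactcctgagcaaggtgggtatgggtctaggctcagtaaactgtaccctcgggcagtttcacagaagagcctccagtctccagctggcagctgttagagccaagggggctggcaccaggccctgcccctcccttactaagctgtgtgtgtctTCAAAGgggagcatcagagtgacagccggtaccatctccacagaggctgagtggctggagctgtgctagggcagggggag
The *S1pr5* and *Gpr37* windows held none of the 3 motifs, and that of *Gpr62* held TCAAAG, whose first base lies 30 bases before the start. Of the 8 windows, 3 held at least 1 motif, that of *Gpr62* and 2 of *Lpar1*, beside 39.3% of all 32851 windows in the table. TCAAAG was in 2 of the 8, that of *Gpr62* and a window of *Lpar1*, which was lower in the mutant, beside 16% of all windows. The *S1pr5* window had 69.3% G and C, that of *Gpr37* 62.7% and that of *Gpr62* 56.7%. These matches describe letters in a short window, and binding was not measured in these files.

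The differences between the libraries were also computed in other ways, and the plot of the receptors under other settings shows where they matter. For *S1pr5* and *Gpr37* the log2 ratio stayed past the cutoff under all 15 alternatives that bear on the values, between −1.58 and −0.89 and between −1.30 and −0.62. *Lpar1* stayed lower in all 15, between −1.16 and −0.48, and passed the cutoff only after all rows were rescaled. *S1pr1* and *Gpr62* were higher in 14 of 15. The unnamed rows behind the rescaling that turned them held 70.7% of all FPKM of the control library and 80.7% of the mutant one.

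**Figure D4:**
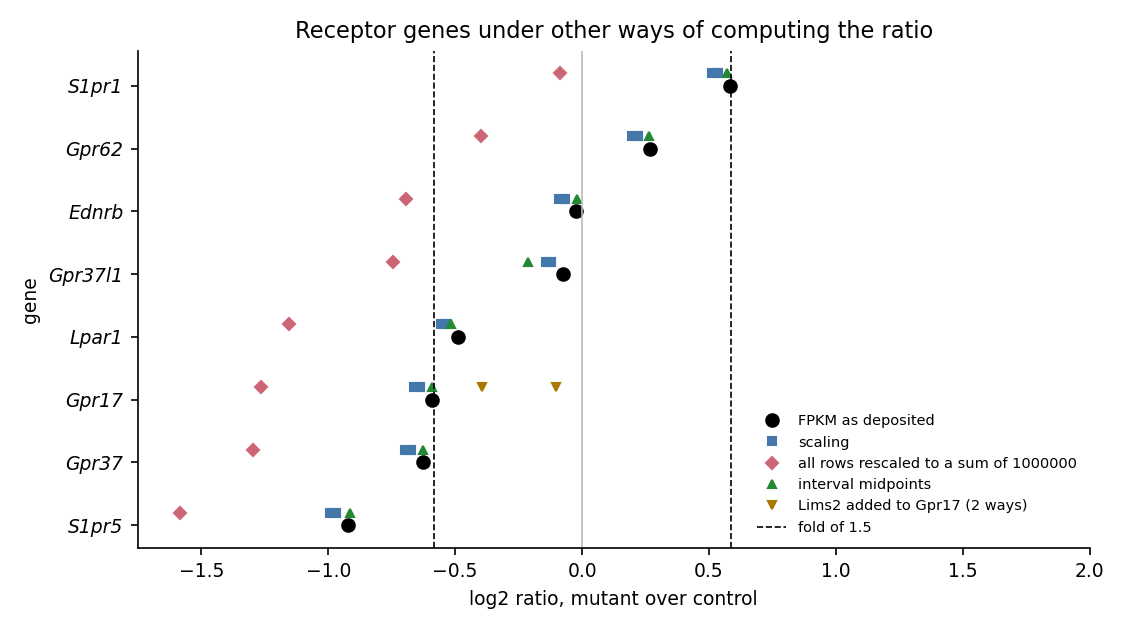
Log2 ratio of mutant to control for each receptor gene with FPKM as deposited (black) and under other scalings (blue), with all rows rescaled to a common sum (red), with interval midpoints (green) and, for *Gpr17*, with *Lims2* added in 2 ways (ochre); dashed lines mark the fold of 1.5. Rescaling all rows moves every gene down by a like amount and puts *S1pr1* at −0.09 and *Gpr62* at −0.40, while adding *Lims2* puts *Gpr17* at −0.10 or −0.40.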

How the data were processed

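TopHat, with its defaults, had mapped the reads, and the authors used Cufflinks for FPKM. The deposited FPKM tables, 1 per library, give each row its FPKM, the bounds of its confidence interval and a status. The submitters' processing notes name mm9; versions, the annotation and the level of the interval are not given in the sources used here.

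Comma-merged names were split and rows of a symbol summed. Symbols with status OK in both libraries and at least 1 FPKM in at least 1 (14199) were compared as log2 of mutant over control FPKM after adding 0.1, which understates differences of low genes. The cutoff was the study's fold of 1.5. Ranges pair the opposite interval bounds of the libraries. Row starts were shifted by 1, since end minus start equalled the RefSeq length in 851 of 886 microRNA rows. No test was run, as there was 1 library per genotype. The computation was checked on simulated data. Depth is the smallest at which bounds of unnamed rows under 100 bases were whole fragments (within 0.0015 in the control library and 0.0012 in the mutant one, for bounds under 100 fragments), so that 3 fragments on 1 kb equal 0.11 and 0.075 FPKM.

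The receptors, the 133 pathway genes and the 86 marker genes were chosen with earlier results of these data known. Besides the receptors, listed genes past the cutoff, the most abundant gene of a role and a defining marker of each cell type could be named. *Lims2*, *Pcbp4*, *Sphk2*, *Cspg4*, *Edn3*, *Pou4f1*, *Slc17a6* and the gene pairs set in ratio were chosen after their values were seen. Some marker results are not reported here. Alternatives were other pseudocounts, filters, scalings, row choices and cutoffs. Python 3.11.15, numpy 2.4.6, pandas 2.3.3 and matplotlib 3.10.9 were used.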

Additional observations from a re-analysis of the deposited data

How the results depend on the processing

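The 3 receptors lower past a fold of 1.5 became 6 after all rows were rescaled to a sum of 1000000, and 0 with a fold above 2; the count was 2 with *Lims2* added to *Gpr17* in either way and 3 otherwise. No receptor was higher past the cutoff under any setting tried. Their median log2 ratio of −0.28 moved to −0.95 after all rows were rescaled and to −0.087 with the *Gpr17* and *Lims2* rows summed, a setting chosen after seeing the data, as were the length-weighted sum and the interval midpoints. The distance of that median from the myelinating OL median, 0.66, became 0.85 with these rows summed and 0.55 with merged rows not split. *S1pr1* and *Gpr62*, neither past the cutoff, changed sign when all rows were rescaled. No paired analysis was possible because there was 1 library per genotype, and for the same reason no library could be left out. FPKM values above their interval limit *Gpr37l1* most.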
